A study of Mus musculus with 2 samples.

Results

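The genes described are 10 transcription factor genes of the B cell lineage (Pax5, Ebf1, Spi1, Spib, Ikzf1, Ikzf3, Pou2af1, Irf4, Irf8 and Bcl6), taken by name out of 20557 protein-coding genes with a start site. NRF1 binding at these genes was read from chromatin immunoprecipitation and sequencing peaks in CH12.LX, an immortalized mouse B-cell lymphoma line of strain B10.H-2aH-4bp/Wts, labelled female. The 2 biological replicates, numbered 1 and 2, were both precipitated with an antibody to NRF1 and come from the same donor per the labels, so they form 1 group. No comparison between groups exists, and the spread between replicates is that of separate preparations of 1 line. Read numbers, not given in the sources used here, leave the depth of both libraries unknown. Peaks do not measure transcripts, so the cell type of the line could not be checked against expressed markers.

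NRF1, nuclear respiratory factor 1, binds a GC-rich palindromic element as a dimer and is best known at CpG-rich promoters of housekeeping genes, among them nuclear genes for mitochondrial proteins. The 10 genes encode factors of another kind, which set and keep B cell identity. PU.1 (encoded by Spi1) and Ikaros (Ikzf1) act early in lymphoid progenitors, and EBF1 and PAX5 specify and commit the B lineage. Several of the others act mainly in mature, germinal centre or plasma cells. Many genes of this kind carry long introns with distal regulatory elements.

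Of the 10 genes, 7 (70.0%, 95% Wilson interval 39.7 to 89.2) had an optimal NRF1 peak with its summit within 1000 bp of the start site, here called a promoter peak, and a gene with one is called occupied. The occupied genes were Pax5, Ebf1, Spib, Ikzf3, Pou2af1, Irf4 and Irf8, and the share of all protein-coding genes was 37.6%. The intervals cover counting error only. The optimal set is the authors' selection, by irreproducible discovery rate, of 17547 peaks on chromosomes 1 to 19 and X. A peak in this set need not recur in both replicates. The Ikzf3 summit at -480 bp, for example, had a relaxed peak in replicate 1 only. Promoter peaks of these genes were weak. The 8773 optimal peaks of highest signal, called the stronger peaks here, start at 38.1 in the units of the authors' peak caller. Only Ikzf3 and Irf8 (2 of 10) had a promoter peak among them, against 27.6% of all genes. The median promoter signal of the 7 occupied genes was 35.7, and that of all 7734 occupied genes was 86.0 (quartiles 36.1 and 419). Of all occupied genes, 73.4% had theirs among the stronger peaks. Of the 10 genes, 5 (Ebf1, Spib, Ikzf3, Pou2af1 and Irf8) had a promoter peak in the authors' conservative set, beside 36.3% of all genes. That set is smaller (15936 peaks) but is not a subset of the optimal set.

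**Figure D1:**
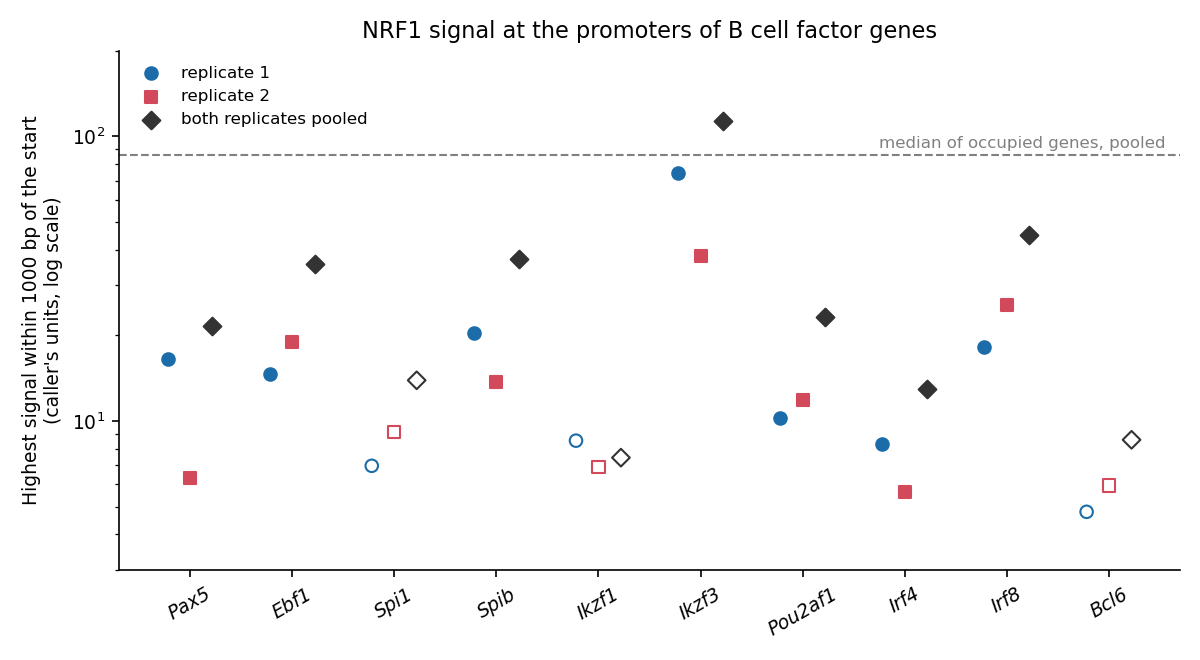
For each of the 10 genes on the x axis, points give the highest NRF1 signal among relaxed peaks within 1000 bp of the start site (log scale, caller's units) in replicate 1, in replicate 2 and in the pooled replicates. Filled symbols mark the 7 genes with an optimal promoter peak and open symbols the 3 without. Ikzf3 is the only gene above the dashed line, the median pooled signal of all occupied genes (86.0), and the open pooled symbol of Spi1 lies above the filled one of Irf4.

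The order of the promoter signals in the pooled replicates was Ikzf3, Irf8, Spib, Ebf1, Pou2af1, Pax5 and Irf4. The replicates, plotted by gene and replicate, separated the top of this order from the rest, but not most other neighbours. Both values of Ikzf3 lay above every value of the other 6 genes, and both of Irf4 lay below those of all others except the value of Pax5 in replicate 2. The ranges of Spib and Ebf1 overlapped, as did those of Pou2af1 and Pax5 and those of Pax5 and Irf4. Neighbours there did not differ beyond their spread.

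PAX5 is the paired-domain factor of B lineage commitment, and Pax5 (chromosome 4, 44524748 to 44710694, minus strand, mm10) had 1 promoter peak, at -196 bp from the start, with a pooled signal of 21.6. Its replicates read 16.6 and 6.30, or 11.4 ± 7.27 (SD, n = 2), the widest relative spread of the 7 promoter peaks, and the peak was not in the conservative set. The larger signals at Pax5 lay inside the gene. Of the 11 optimal summits in the gene bounds plus 20 kb, 10 were inside the gene beyond the promoter, and 3 of these exceeded a signal of 100. The intronic peak at +80507 bp had a pooled signal of 258, with 138 in replicate 1 and 119 in replicate 2. The one at +40720 bp had 201, with 116 and 85.9 in the replicates, and the one at +138120 bp had 133, with 63.2 and 69.6. Each of the 3 intronic peaks was higher in both replicates than the promoter peak in either, and all were in the conservative set. The next strongest peak in the gene, at +172629 bp, reached only 35.5.

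The sequences under the 3 strong Pax5 peaks are shown because these are the strongest peaks in the gene. They come from the mm9 genome (NCBIM37), where the authors' separate mm9 peak set had a summit within 10 bp of the same distance from the start, and each is the 10-base stretch closest to the NRF1 consensus within 50 bp of the summit, in capitals, with 10 bases to either side, on the plus strand.
Pax5 +80508, chr4:44643029-44643058: cacagatgctACGCATGCCCgtgctggagg
Pax5 +40719, chr4:44682835-44682864: cgttgtgcacACACATGCGTatgagtcact
Pax5 +138110, chr4:44585459-44585488: agaccactctGAGCATGCCCagtcttgtcc
The stretches at +80508 and +138110 bp differ from the consensus at 2 of 10 bases and the one at +40719 bp at 3, and none is an exact match. The letters GCATGC, the middle of the thymine form of the consensus and its own reverse complement, were present within 50 bp of the summit in 4 of the 5 mm9 peaks of Pax5, against 18.4% of all 11216 mm9 peaks. Over the windows of all 10 genes the count was 5 of 24 (20.8%), close to the share of all mm9 peaks. This count was not among the planned results. At +40719 bp the letters lie outside the bases shown. An exact consensus match does exist in a Pax5 intron, at +140454 bp, in a stretch of alternating purines and pyrimidines that no mm9 peak covered.
Pax5 +140454, chr4:44583098-44583127, no peak: acgcatgcacGCGCACGCGCgcgtgtgtat

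EBF1 is the early B cell factor that acts with PAX5, and Ebf1 (chromosome 11, 44618100 to 45008096, plus strand) had the most summits of the 10 genes, 23 in its bounds plus 20 kb. It had 3 promoter summits, at +361 bp with a pooled signal of 35.7, at -970 bp with 23.7 and at +986 bp with 18.4. The first read 14.6 in replicate 1 and 18.9 in replicate 2 (16.8 ± 3.05, SD, n = 2), and all 3 were in the conservative set. Only 1 of the 23 summits was that of a stronger peak, an intronic peak at +68182 bp with a pooled signal of 68.7 and replicates of 35.4 and 34.8. The others ran from 6.31 to 35.9. Several of these summits came in close pairs from overlapping peaks, such as those at +86010 and +86213 bp. The highest relaxed peak overlapping them was the same in each replicate. In replicate 2 the relaxed peak nearest to +86213 bp was another, with a signal of 6.90. The stronger mm9 promoter summit, at -968 bp with an mm9 signal of 42.1, had a stretch with 3 mismatches at best, not shown. The strongest summit in the window lay at a near-consensus site with 1 mismatch. A promoter summit at +324 bp on mm9, with an mm9 signal of 35.5, lay at one with 2, read here on the minus strand.
Ebf1 +68183, chr11:44499777-44499806, plus strand: attgttgggtGCACATGCGCgtttagcata
Ebf1 +324, chr11:44431894-44431923, minus strand: gcagcggcagACGCACTCGCgtggccaggc

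The 2 ETS family genes, which encode PU.1 and its close relative SPI-B, differed at the promoter. Spi1 (chromosome 2, 91082374 to 91115759, plus strand) had no promoter peak and no summit inside the gene. The highest relaxed signal within 1000 bp of its start was 6.97 in replicate 1 and 9.16 in replicate 2, and 13.9 in the pooled list at +807 bp, which exceeds the 12.9 of the selected Irf4 peak. The 4 summits in its window were upstream. A pair at -11993 and -11790 bp (39.6 and 28.7) lay at the start of the neighbour Slc39a13, a zinc transporter gene, and a pair at -3621 and -3422 bp had signals of 18.5 and 10.6. Spib (chromosome 7, 44525995 to 44532087, minus strand) had 3 promoter summits, with pooled signals of 37.1 at +698 bp, 22.1 at +49 bp and 17.6 at -756 bp. The strongest of them read 20.3 in replicate 1 and 13.8 in replicate 2 (17.0 ± 4.63, SD, n = 2).

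The strongest NRF1 peak inside any of the 10 genes was in Spib, at +3893 bp, with a pooled signal of 305 and replicates of 165 and 141. On mm9 its summit lay in a coding exon of Spib, and the nearest start of another gene, that of Mybpc2 (a myosin-binding protein gene), was -3479 bp away. A stronger peak in the Spib window, with 520 pooled and 278 and 244 in the replicates, lay at -16734 bp from the Spib start and -6 bp from the start of Pold1, which encodes the catalytic subunit of DNA polymerase delta. That peak is thus at the promoter of another gene. Both summits had a stretch with 2 mismatches to the consensus, shown on the plus strand of mm9.
Spib +3897, coding exon, chr7:51783545-51783574: cacccaccacACGCACTCGCgcatgtcccc
Pold1 start, chr7:51804173-51804202: aaccctctgcGCGCAGGCCCagagctgcgg

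The 2 Ikaros family genes also differed at the gene table's start site. Ikzf1 (chromosome 11, 11684962 to 11772930, plus strand) had no promoter peak there, with relaxed signals of 8.54 in replicate 1 and 6.91 in replicate 2. The RefSeq promoter sequences give 2 Ikzf1 starts, neither of them the gene table's. An optimal summit with a pooled signal of 23.2 (11.4 and 10.9 in the replicates) lay 191 bp from one of them. It was 4443 bp from the other and +5406 bp from the gene table's start. Counted at any RefSeq start, 8 of the 10 genes were occupied, beside 40.8% of all genes. All 6 summits of Ikzf1 were inside the gene and outside the stronger peaks, with pooled signals up to 26.8.

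Aiolos, the product of Ikzf3, is the Ikaros relative of more mature B cells. Ikzf3 (chromosome 11, 98464610 to 98546031, minus strand) had the strongest promoter peak of the 10 genes, with a pooled signal of 114 at +139 bp. The replicates read 74.4 and 38.0, or 56.2 ± 25.8 (SD, n = 2), and 54.3% of occupied genes had a lower pooled promoter signal. A further promoter summit at -480 bp (17.8) had a relaxed peak in replicate 1 only. Just outside the promoter, a peak at -1068 bp had a signal of 51.5. The strongest peak in the window of any of the 10 genes, with 589 pooled and 291 and 300.4 in the replicates, lay at -5043 bp from the Ikzf3 start and -23 bp from the start of Zpbp2, a sperm acrosome gene that is transcribed the other way. Downstream of Ikzf3, a peak with a signal of 365 lay at +88523 bp, 722 bp from the start of Mien1. Both of these peaks were thus promoter peaks of neighbours, and 10 of the 14 summits in the Ikzf3 window were nearer to another gene's start.

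The sequences around Ikzf3 are shown because they hold the best consensus match under any of these peaks. The peak at Zpbp2 was the only 1 of 24 mm9 peaks in the windows of the 10 genes with an exact consensus match within 50 bp of its summit, the downstream peak had 1 mismatch, and the Ikzf3 promoter peak had 3. Mismatches did not order the signals throughout, since the weaker peak just outside the promoter, at -1083 bp on mm9, also had 1.
Zpbp2 start, chr11:98412347-98412376, minus strand: ccgcctcctgGCGCACGCGCagttgcggag
Mien1 side, chr11:98318806-98318835, plus strand: gagttggagaGCGCATGCACgccgggagtc
Ikzf3 +145, chr11:98407183-98407212, plus strand: tcgctcggtcGCGTCGGCGCagatgcaggg

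OCA-B, the product of Pou2af1, is the coactivator of the octamer factors. Pou2af1 (chromosome 9, 51213690 to 51240079, plus strand) had 2 summits in all. The promoter summit at -469 bp had a pooled signal of 23.1, with 10.3 in replicate 1 and 11.9 in replicate 2 (11.1 ± 1.15, SD, n = 2). The one at +1841 bp was higher in the pooled list (29.4), and its replicates, 21.4 and 7.61, lay farther apart.

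The interferon regulatory factors IRF4 and IRF8 bind with PU.1 or SPI-B at composite elements. Irf8 had the second highest promoter signal of the 7 occupied genes, with replicates that overlapped those of Spib, and Irf4 had the lowest. Irf8 (chromosome 8, 120736358 to 120756694, plus strand) had a promoter peak at -99 bp with a pooled signal of 45.2. Replicate 1 read 18.2 and replicate 2 read 25.6 (21.9 ± 5.25, SD, n = 2), and the peak was in the conservative set. Its only other summit, at -10855 bp, had a signal of 17.0. Irf4 (chromosome 13, 30749233 to 30766981, plus strand) had summits at -118 and +90 bp with pooled signals of 12.9 and 5.22. Both fell on 1 relaxed peak per replicate, of 8.30 and 5.64 (6.97 ± 1.88, SD, n = 2), and neither was in the conservative set. Only 1.18% of occupied genes had a lower promoter signal than Irf4. The Irf8 stretch nearest to the consensus under the mm9 summit, on the plus strand, had 2 mismatches.
Irf8 -99, chr8:123260135-123260164: tgattgggccGCGCCAGCGCccctcccgct

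BCL6 is the repressor that drives the germinal centre programme, and Bcl6 (chromosome 16, 23965050 to 23988866, minus strand) was the only one of the 10 genes with no optimal summit in its bounds plus 20 kb. The nearest was 61230 bp from its first RefSeq start and 53661 bp from its other one. The relaxed lists had at most 4.80 in replicate 1, 5.93 in replicate 2 and 8.60 in the pooled list within 1000 bp of the start, where the pooled list's median over all its peaks is 6.18. Its promoter is CpG-rich, as described with the other promoters.

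**Figure D2:**
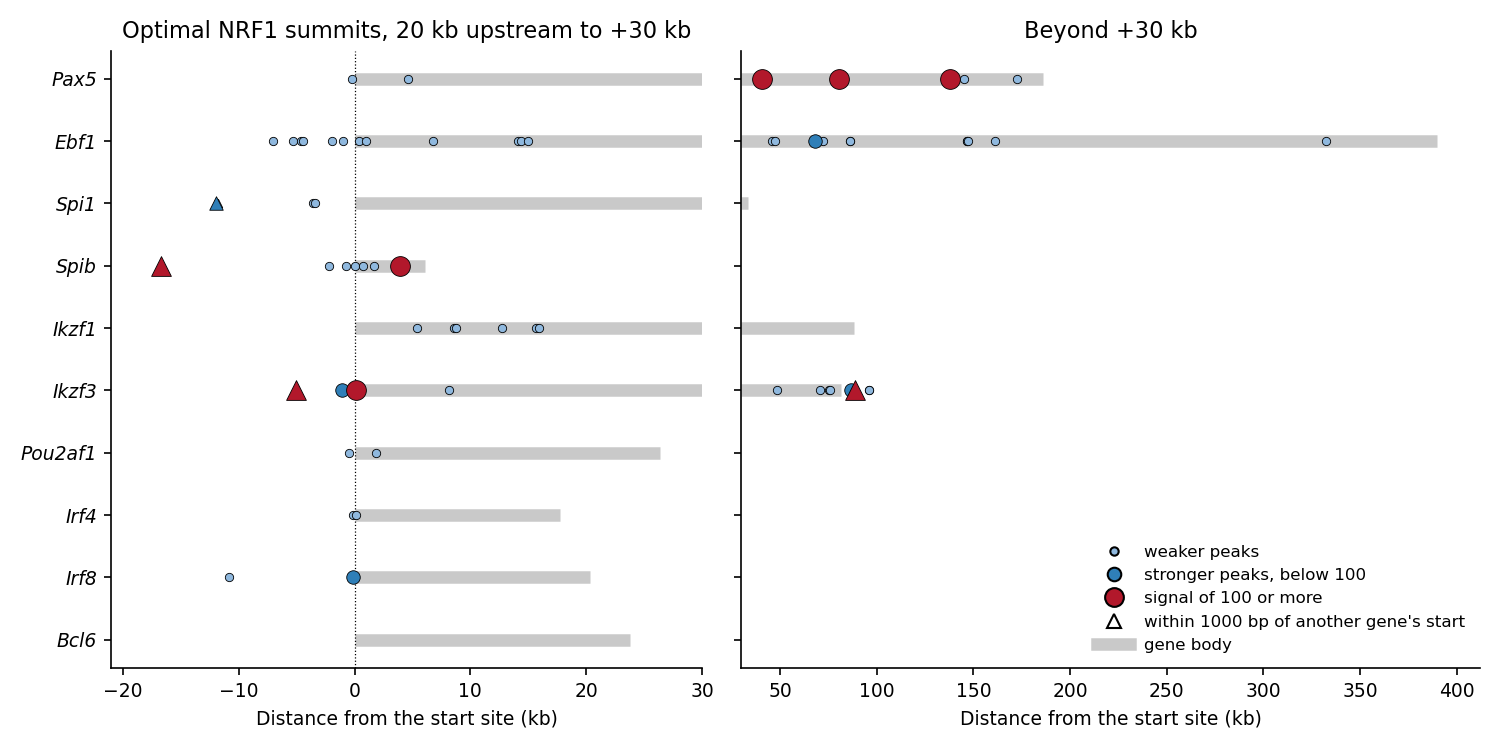
Each symbol is an optimal NRF1 summit, placed by its distance in kb from the start of the gene named on the y axis, from 20 kb upstream to +30 kb (left) and beyond (right); grey bars are gene bodies. Colour and size give the signal class and triangles lie within 1000 bp of another gene's start. The red symbols of 100 or more sit at introns of Pax5, in Spib, at the Ikzf3 promoter and at the neighbours Pold1, Zpbp2 and Mien1, and the row of Bcl6 is empty.

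Over the 10 genes, the bounds plus 20 kb held 71 optimal summits, and 9 of the 10 genes had at least 1, beside 61.4% of all genes. Of the 71, 13 were in the promoters, 39 inside the genes beyond the promoter, 14 upstream and 5 downstream. In the map of summits, Ebf1, Ikzf3 and Pax5 have the most, with 23, 14 and 11, and Spib, the shortest of the genes, has 7, against 6 in the longer Ikzf1. Per 100 kb of window the order was Spib (15.2), Ikzf3 (11.5), Spi1 (5.45), Ebf1 (5.35), Pax5 (4.87), Ikzf1 (4.69), Irf4 (3.46), Irf8 (3.31), Pou2af1 (3.01) and Bcl6 (0), and the median over all genes was 1.39. Overlap of peaks inflates these counts. The peaks of 26 of the 71 summits overlapped another optimal peak, and merging them left 58.

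Most of the 71 summits were weak. Stronger peaks made up 13 of them (18.3%), and 8 (11.3%) had a signal of 100 or more, which 28.4% of all optimal peaks reached. Of the 8, 4 were inside Pax5 or Spib, 1 was the Ikzf3 promoter peak and 3 were at the starts of Pold1, Zpbp2 and Mien1. The common width of 344 bp, which 72.4% of optimal peaks share, was that of 64 of the 71 peaks, and 6 were narrower.

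**Figure D3:**
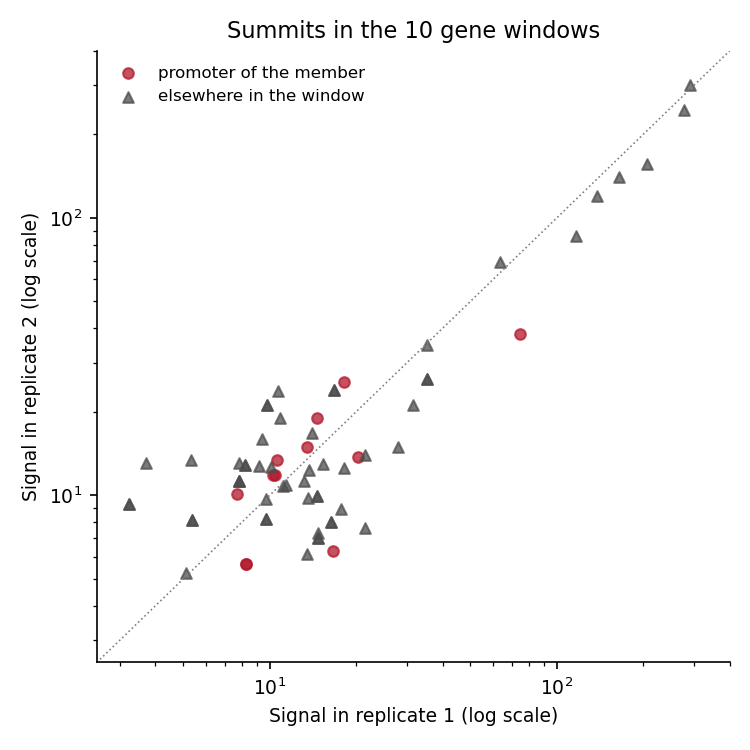
Each point is 1 of the 68 summits in the windows of the 10 genes with a relaxed peak in both replicates; axes give its signal in replicate 1 and replicate 2 (log scales, caller's units), and the dotted line marks equal signal. The strongest peaks lie near the line, the Ikzf3 promoter peak (74.4 and 38.0) lies below it, and points with signals near 10 scatter on both sides. Summits that took their values from the same relaxed peaks share a position.

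Replicate 1 had the higher signal at 35 and replicate 2 at 33 of the 68 summits with a relaxed peak in both. These are not all separate measurements, since 24 of the 71 summits took their replicate 1 value from a relaxed peak shared with another summit. The scatter of the replicates shows how far signals can be told apart at these genes: of the 8 peaks of 100 or more, 7 had signals of at least 63.2 in both replicates, and the Ikzf3 promoter peak read 74.4 and 38.0. Weak peaks could lie as far apart or farther, as at the intronic Ebf1 peak at +86010 bp, where the replicates read 3.23 and 9.30.

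Chromosome 11 moved with these counts. It held 18.5 optimal summits per Mb, against 1.77 to 9.10 on the other chromosomes, and outside the stronger peaks alone 10.6 per Mb against a median of 3.19. Ebf1, Ikzf1 and Ikzf3 lie on it and account for 43 of the 71 summits. The median gene of chromosome 11 had 3.34 summits per 100 kb and the median gene elsewhere 1.27. Among chromosome 11 genes, 68.3% had fewer summits per 100 kb than Ebf1, 64.0% fewer than Ikzf1 and 92.7% fewer than Ikzf3. Promoter peaks were found at 2 of the 3 genes on this chromosome, beside 48.8% of its genes, and at 5 of the 7 others, beside 36.7% of genes elsewhere. The part of the chromosome in the counts of Ebf1, Ikzf1 and Ikzf3 was not tested.

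Of the 10 promoters, 3 were CpG-rich (GC above 0.5 and CpG observed over expected above 0.6 in 1000 bp around the annotated mm9 start), beside 44.2% of all mm9 promoters, and 4 were around the RefSeq-placed start. The 3 were those of Ikzf3, Irf8 and Bcl6, of which 2 were occupied, beside 63.7% of all CpG-rich promoters. Of the other 7 genes, 5 (Pax5, Ebf1, Spib, Pou2af1 and Irf4; 71.4%, Wilson interval 35.9 to 91.8) were occupied, beside 15.1% of all other promoters. None of these 7 had a stronger peak at the promoter (Wilson interval 0 to 35.4). The share of all other promoters, 9.18%, lies inside that interval. Both genes with a stronger promoter peak, Ikzf3 and Irf8, were among the CpG-rich ones. Spib (37.1) and Ebf1 (35.7), which were not, lay just below the limit of 38.1. The class depends on the start used: around the RefSeq start, Pax5 also met the criteria, with a GC content of 50.2% and a CpG ratio of 0.732, and Ebf1 missed them with 49.3% and 0.988. The CpG ratios of Spib (0.0873), Spi1 (0.176), Pou2af1 (0.311), Irf4 (0.365) and Ikzf1 (0.455) were far from the limit.

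No promoter of the 10 genes held an exact NRF1 consensus within 1000 bp of its mm9 start, nor one with 1 mismatch. Of all mm9 promoters of that length, 5.01% held an exact match and 24.9% one with up to 1 mismatch on either strand. With up to 2 mismatches, 6 of the 10 genes (Pax5, Ikzf1, Ikzf3, Irf4, Irf8 and Bcl6) had a site, beside 65.7% of all promoters. These counts use the GENCODE start, as for all genes. Around the start placed by the RefSeq promoter sequence, 0 of the 10 had an exact match and 7 had one with up to 2 mismatches, since the Ebf1 stretch shown above then falls in the window. A match is a run of letters and not a binding site, and Ikzf1 and Bcl6 had such letters without a promoter peak.

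**Figure D4:**
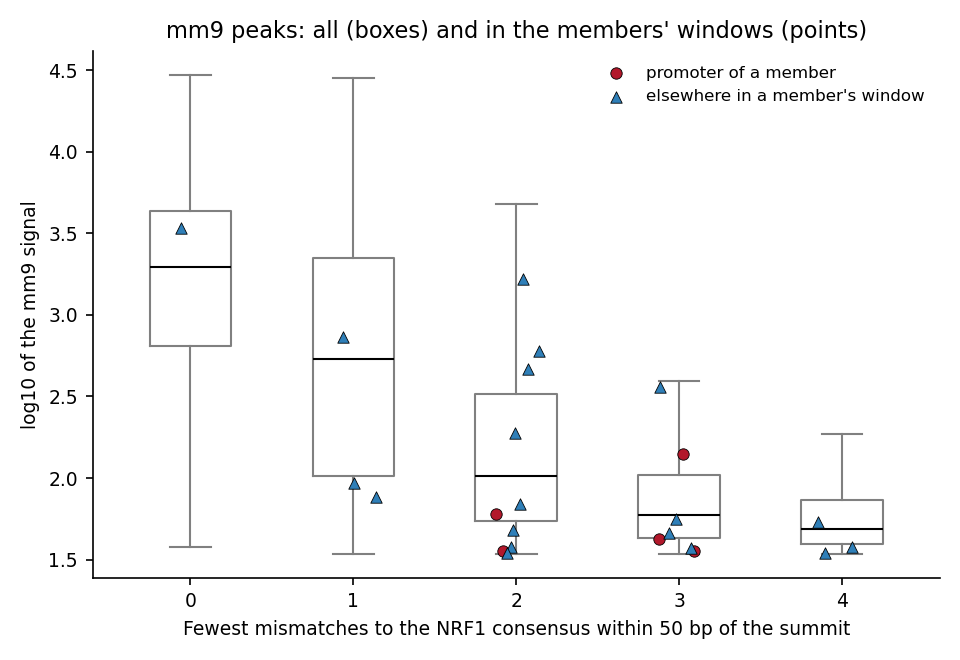
mm9 peaks by the fewest mismatches to the 10-base NRF1 consensus within 50 bp of the summit (x axis) and by log10 of the authors' mm9 signal (y axis). Boxes show the quartiles of all peaks in a class, with whiskers to at most 1.5 box lengths, and points are the 24 peaks in the windows of the 10 genes. Most points lie at 2 or 3 mismatches, and the promoter peaks of the 10 genes (circles) have 2 or 3.

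The mm9 set, whose stated inputs name no control, gave a sparser view of the same places. It had 24 peaks in the windows, of which 23 lay at the same distance from the start, within 40 bp, as an mm10 optimal peak. By its peaks 4 of the 10 promoters were occupied (Ebf1, Spib, Ikzf3 and Irf8), beside 30.8% of mm9 genes, with mm9 signals of 42.1, 35.7, 139 and 59.8. In the plot of mismatches, 1 of the 24 peaks had an exact match, 4 had at most 1 mismatch and 14 at most 2, and among all mm9 peaks the shares were 8.80%, 34.0% and 62.8%. Over all mm9 peaks the median mm9 signal fell from 1978 in peaks with an exact match to 537 with 1 mismatch and 103 with 2. In those classes the peaks in the windows of the 10 genes had 3419 (1 peak), a median of 93.2 (3 peaks) and one of 64.4 (10 peaks). These include peaks at the starts of neighbours, among them the peak of 3419, which is that at Zpbp2.

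Other lists of transcription factor genes were occupied as follows, where the share of all genes was 37.6%. Of 23 paralogs of the 10 genes, 10 (43.5%) had an optimal promoter peak, with signals of 658 at Bcl6b and 580 at Irf3, far above those of Bcl6, which had none, and of Irf4 and Irf8. Ikzf5 followed with 91.4. Ebf2, Ebf3 and Ebf4 had no optimal promoter peak, though Ebf4 had one in the conservative set (27.1). Of 34 other B cell and plasma cell factor genes, 18 (52.9%) were occupied. The strongest were Cbfb (571), the partner of the RUNX factors, Pou2f1 (552), the octamer factor OCT-1, and Myb (477), while Bach2, Elf1 and Ets1 had none in the optimal set. Elf1 had one in the conservative set, with a signal of 78.7. Of 12 T cell factor genes, only Runx3 (27.7) was occupied (8.33%, Wilson interval 1.49 to 35.4), and Bcl11b, Eomes and Foxp3 were among those without a peak. Of 13 myeloid and erythroid factor genes, 4 (30.8%) were occupied, led by Cebpb (42.2), Cebpd (32.5) and Klf4 (32.3), and not Cebpa, Cebpe or Gata1. By stronger peaks the share of all genes was 27.6%. The counts were 6 of 23 paralogs (26.1%), 11 of 34 B cell and plasma cell factors (32.4%), 0 of 12 T cell factors and 1 of 13 myeloid and erythroid factors (7.69%). The lists were chosen with results of these data known, so no difference between them was tested.

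**Figure D5:**
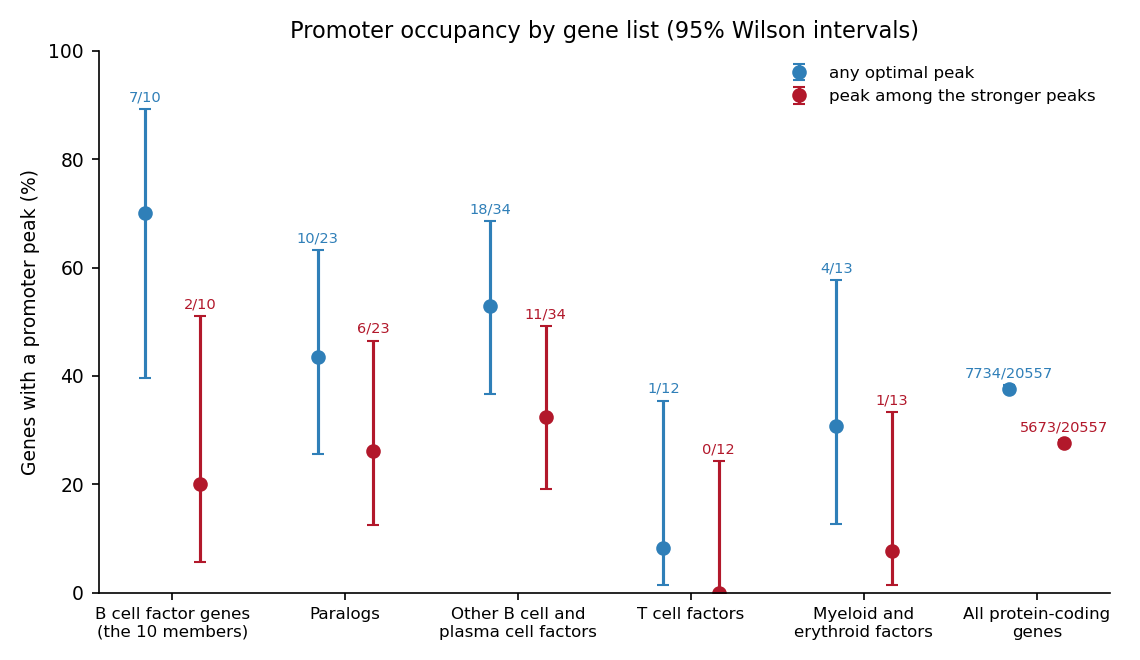
Percent of genes with an NRF1 promoter peak (y axis) for the 10 B cell factor genes, 4 other lists and all protein-coding genes, by any optimal peak (blue) and by a stronger peak (red); bars are 95% Wilson intervals and labels give the counts. The blue point of the 10 genes is the highest (7 of 10). Their red point (2 of 10) lies below that of all genes, with an interval that covers it. The top place also held with promoters of 500 and 2000 bp. It did not hold in the conservative set (5 of 10, against 19 of 34 other B cell and plasma cell factors). Nor did it hold without replicate 1 (5 of 10, against 12 of 23 paralogs). Without replicate 2 the counts were 6 of 10, against 21 of 34 other B cell and plasma cell factors.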

How the data were processed

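Per the notes deposited with the samples, the authors called relaxed lists of peaks and background on mm10 against a control, 1 per replicate and 1 for both pooled, and selected a conservative and an optimal set by irreproducible discovery rate; they also made an mm9 peak set from both replicates. The aligner, caller and thresholds were not given in the sources used here. The deposited signal values are those of the authors' caller, with a scaling that no source used here gives, and served to describe and rank peaks within a list. Signals of the optimal and conservative sets are those of the pooled list, and mm9 and mm10 signals were not compared. The deposited score columns entered no result.

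Gene bounds came from RefSeq (GRCm38.p6), with strand from GENCODE vM1 by symbol (18380 genes) or synonym (2177). Each gene had 1 start, a promoter reached 1000 bp to either side of it, and windows were gene bounds plus 20 kb. A replicate's value is the highest signal among its relaxed peaks that overlap the optimal peak. On mm9, 8 of the 10 starts were placed by finding the RefSeq promoter sequence once in NCBIM37, and Spi1 and Ikzf3 took the GENCODE start. Peaks on mm9 and mm10 were set side by side by distance from the start, within 100 bp, and no coordinate was converted. The NRF1 consensus has 10 bases, the sixth C or T, and was searched on both strands with pandas 2.3.3 and NumPy 2.4.6, tested first on simulated data.

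The 10 genes and all lists were chosen with earlier results of these data known, so no test was run. Named were the 10 genes, the genes whose start was nearest to a summit in a window, and, per list, the 3 strongest occupied and the first 3 unoccupied genes in alphabetical order. The alternatives were the other peak sets, each replicate alone, other distances, flanks and mismatch limits, and, added after seeing the data, any RefSeq start, summits off chromosome 11, merged peaks and motif counts around the RefSeq-placed mm9 start. Shares of motifs and CpG-rich promoters use the GENCODE start of every gene.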

Additional observations from a re-analysis of the deposited data

How the results depend on the processing

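Of 52 recomputed summary values, 35 stayed within 1.5 times the main value and 17 did not. Both alternatives for a replicate's promoter signal picked the same relaxed peak at each of the 7 genes, so they say nothing about stability. The share of the 10 genes with a promoter peak, 70.0%, was 20% by the stronger peaks of the optimal set and 40% in the mm9 set, with 1 start per gene or all annotated starts, and 50% to 60% with 1 replicate left out. The 71 summits became 45 within the gene bounds only, 24 in the mm9 set and 28 without the genes on chromosome 11 (an alternative added after seeing the data), and 56 to 68 with 1 replicate left out. The 0 promoters with an exact consensus became 6 with up to 2 mismatches, and 7 with up to 2 around the RefSeq-placed start (added after seeing the data). With promoters of 500 bp, occupancy was 21.7% for the paralogs, 0% for the T cell list and 15.4% for the myeloid and erythroid list. The T cell share of 8.33% was 16.7% in the conservative set, without either replicate and with promoters of 2000 bp, and among CpG-rich promoters it was 0% and that of the myeloid and erythroid list 50%. The cause was not tested in any of these. No paired analysis was possible because both samples belong to 1 group. Depth is unknown, so what it limits could not be computed.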

Other observations

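The conservative set is not a subset of the optimal set at these genes. It held 52 summits in the windows of the 10 genes, of which 41 were also optimal summits. Of the 11 others, the 2 in the Irf4 window had the only conservative calls there, with a signal of up to 19.7, and 3 lay in the Ikzf3 window, with up to 22.1. In the Ikzf1 window 1 of the 2 conservative summits was not an optimal one (14.5). Bcl6 had none in either set. Over the genome, 13422 conservative peaks shared the summit of an optimal peak and 2514 did not.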
